A study of Macaca fascicularis with 56 samples.

Results

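The guanylate-binding proteins GBP1, GBP2, GBP3, GBP4 and GBP5 were followed in the blood of cynomolgus macaques (Macaca fascicularis) over 8 h. A gene was read by the probe sets that carry its symbol and no other, 11 for the 5 genes, and among these by the one with the highest mean log2 intensity over the 56 arrays. The 5 genes are among 19775 with at least 1 such probe set. GBP1 and GBP2 passed the filter on low values and were tested among 15953 genes, whereas GBP3, GBP4 and GBP5 did not pass it and are described without a test. The 14 animals each gave an array at 0, 2, 4 and 8 h, with 4 animals in the vehicle arm, 4 in the peptide control arm and 6 in the LR12 arm. The series title speaks of a challenge with endotoxin and a later treatment with LR12 or with its scrambled form. The sample labels say only peptide control, which is taken here to be that scrambled form. LR12 copies a stretch of the TREM-like transcript 1 protein and captures the ligands of TREM-1, a myeloid cell receptor that strengthens the response to endotoxin. The labels give no dose, no age and no sex, and they leave unstated whether vehicle animals were given endotoxin and where 0 h lies relative to the challenge. The arrays carry probes designed on human sequence, so a low value can come from few transcripts or from a poor match to macaque RNA, and levels of different probe sets are not compared.

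Guanylate-binding proteins are large GTPases of the dynamin superfamily that interferon gamma strongly induces through JAK kinases and IRF1. GBP1 binds lipopolysaccharide on bacteria in the cytosol and, with GBP2, GBP3 and GBP4, forms a coat on which caspase-4 is activated, the step that leads to cleavage of gasdermin D and to pyroptosis. GBP5 has been linked to assembly of the NLRP3 inflammasome and to lower infectivity of enveloped viruses through furin. In blood these proteins are used as a reading of interferon activity in leukocytes.

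All arrays shared 1 scale, with a trimmed mean between 150.03 and 150.04 and a median between 12.86 and 23.47. Their mean signal over 45 bacterial spike-in control probe sets fell into 2 sets, 24 arrays with high and 32 with low control signal, which were spread unevenly. All 4 peptide control arrays at 4 h were high and none of the vehicle arrays at 2 h was. The labels name the animal of each array, so the animal entered the fits as a random block.

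GBP1 (probe set 202269_x_at) and GBP2 (202748_at) were above the array median on all 56 arrays. GBP1 ran from 10.66 to 13.73 on the log2 scale and GBP2 from 9.82 to 13.16. The other genes were near or below the level of a typical probe set. GBP3 (223434_at) was above the array median on 0 of 56 arrays, and its highest linear intensity was 14.88. GBP4 (235175_at) was likewise above it on 0 arrays, with a highest intensity of 16.97. GBP5 (229625_at) was above it on 2 arrays, the peptide control animal Y31305 at 4 h with 24.71 and the vehicle animal Y31304 at 8 h with 19.13. In the LR12 arm at 4 h, when GBP1 and GBP2 stood highest, GBP3 lay between -0.61 and 3.32, GBP4 between -0.17 and 3.44 and GBP5 between 1.73 and 3.76 on the log2 scale. These values overlapped those of the same arm at 0 h, where GBP3 lay between -0.46 and 3.38, GBP4 between -0.27 and 3.46 and GBP5 between 1.98 and 3.70. The second probe sets of GBP4 (235574_at) and GBP5 (238581_at) were above the array median on 0 and 1 arrays. The latter had LR12 means of 0.97 ± 1.81 (log2, SD, n = 6) at 0 h and 2.85 ± 1.11 at 2 h, with overlapping animals and both below the range of array medians.

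**Figure D1:**
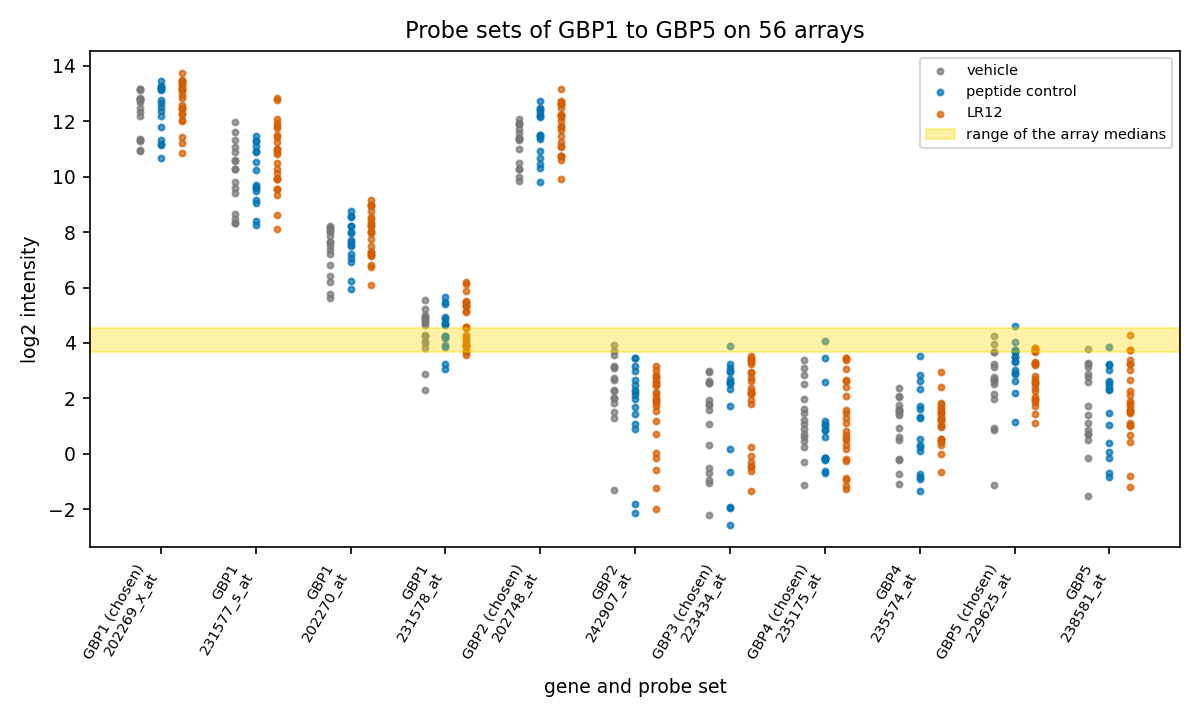
Log2 intensity of the 11 probe sets of GBP1 to GBP5 on 56 arrays, 1 point an array, coloured by arm; the band spans the array medians, 3.68 to 4.55 on the log2 scale. The 4 probe sets of GBP1 and 1 of GBP2 reach above the band, and those of GBP3, GBP4 and GBP5 lie in or below it with few exceptions.

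GBP1 rose with LR12 at 2 and 4 h and had fallen back at 8 h. Among the 6 LR12 animals the lowest, median and highest log2 intensity were 11.21, 12.54 and 13.29 at 0 h. At 2 h they were 12.46, 13.13 and 13.73. At 4 h they were 13.18, 13.37 and 13.50. All 6 animals were higher at 2 h and at 4 h than at 0 h. At 4 h they lay close together on this probe set, with an SD of 0.13 against 0.72 at 0 h. At 8 h the lowest, median and highest were 10.85, 12.14 and 12.47, every animal below its own value at 4 h. The other GBP1 sets spread more widely at 4 h, with SDs of 0.62, 0.39 and 0.72 for 231577_s_at, 202270_at and 231578_at. Their SDs at 0 h were 0.80, 0.62 and 0.57.

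Peptide control animals began with GBP1 at 13.27, 12.68, 11.80 and 11.14 at 0 h in Y31305, Y31306, Y31307 and Y31308. The same animals gave 13.22, 13.13, 12.53 and 12.19 at 2 h. They gave 13.45, 13.15, 13.23 and 12.36 at 4 h. The 3 animals that began lower climbed, and Y31305, highest at 0 h, moved little. At 8 h the values were 12.77, 11.33, 11.20 and 10.66, again below 4 h in each animal.

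Among vehicle animals GBP1 stood at 12.21, 11.34, 13.12 and 13.18 at 0 h in Y31301, Y31302, Y31303 and Y31304. It stood at 12.82, 11.30, 12.84 and 12.70 at 2 h. It stood at 12.79, 11.35, 13.15 and 12.77 at 4 h. These animals kept no common direction, and Y31302 was below the other 3 at each of these hours. At 8 h the values were 12.50, 10.95, 10.93 and 12.33, with the drop of Y31303 the largest.

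By limma's moderated test with the animal as a random block, Benjamini-Hochberg adjusted over the 15953 genes, GBP1 in the LR12 arm was 0.73 ± 0.29 (log2, SE, n = 6) higher at 2 h than at 0 h, a 1.66-fold difference with an adjusted p of 0.0442. At 4 h it was 0.93 ± 0.29 higher, 1.90-fold, with an adjusted p of 0.00833. It then fell by 1.46 ± 0.29 in 6 of 6 animals to 8 h (adjusted p = 0.000481), when it did not differ detectably from 0 h (difference -0.53, 95% interval -1.12 to 0.06, adjusted p = 0.161). The peptide control differences of GBP1 from 0 h were 0.54 ± 0.36 at 2 h (adjusted p = 0.436) and 0.83 ± 0.36 at 4 h (adjusted p = 0.110), and GBP1 then fell by 1.56 ± 0.36 from 4 to 8 h in 4 of 4 animals (adjusted p = 0.0219). Those of the vehicle arm were -0.05 ± 0.36 at 2 h, 0.06 ± 0.36 at 4 h and -0.78 ± 0.36 at 8 h, with adjusted p of 0.991, 0.960 and 0.468. The vehicle step from 4 to 8 h was -0.84 ± 0.36 in 4 of 4 animals, with an unadjusted p of 0.0240 and an adjusted p of 0.940.

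GBP2 followed the same course, with a larger difference at 4 h in the LR12 arm than the chosen set of GBP1. The GBP1 sets 231577_s_at and 202270_at rose more than GBP2 there, by 2.52 and 1.47, and 231578_at less, by 0.95. The lowest, median and highest of the 6 LR12 animals were 10.75, 11.30 and 12.22 at 0 h. They were 11.26, 12.19 and 13.16 at 2 h. At 4 h they were 12.50, 12.63 and 12.75, so that the 6 animals, which had spread over an SD of 0.52 at 0 h, stood within an SD of 0.08. At 8 h the values ran from 9.93 over a median of 10.75 to 12.02, the SD being 0.79.

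GBP2 of the peptide control animals was 12.18, 11.35, 10.92 and 10.32 at 0 h in Y31305 to Y31308. It was 12.73, 12.14, 11.51 and 11.50 at 2 h. It was 12.49, 12.44, 12.27 and 11.42 at 4 h. All 4 animals stood above their own 0 h value at both hours. At 8 h the values were 12.39, 10.67, 10.45 and 9.82, with Y31305 nearly at its level of 4 h and the other 3 far below theirs.

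GBP2 of the vehicle animals was 11.31, 10.01, 11.41 and 11.91 at 0 h in Y31301 to Y31304. It was 11.71, 10.29, 11.92 and 12.08 at 2 h, higher in 4 of 4 animals by at most 0.51. It was 11.59, 10.48, 11.90 and 11.36 at 4 h. At 8 h it was 11.39, 10.29, 9.84 and 11.01, so 2 animals ended above and 2 below their 0 h value.

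LR12 animals had GBP2 0.74 ± 0.30 (log2, SE, n = 6) higher at 2 h than at 0 h (1.68-fold, adjusted p = 0.0415) and 1.24 ± 0.30 higher at 4 h (2.36-fold, adjusted p = 0.000516) by limma. It fell by 1.66 ± 0.30 from 4 to 8 h in 6 of 6 animals (3.15-fold, adjusted p = 9.25e-05), and at 8 h differed from 0 h by -0.42 (95% interval -1.01 to 0.18, adjusted p = 0.288). The peptide control differences of GBP2 were 0.78 ± 0.36 at 2 h (adjusted p = 0.211), 0.96 ± 0.36 at 4 h (adjusted p = 0.0614) and -0.36 ± 0.36 at 8 h (adjusted p = 0.641), and the step from 4 to 8 h was -1.32 ± 0.36 (adjusted p = 0.0552). Those of the vehicle arm were 0.34 ± 0.36, 0.17 ± 0.36 and -0.53 ± 0.36, with adjusted p of 0.865, 0.874 and 0.699. Neither gene was called between 2 and 4 h in any arm, the largest difference being 0.50 ± 0.30 for GBP2 in the LR12 arm (adjusted p = 0.266).

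**Figure D2:**
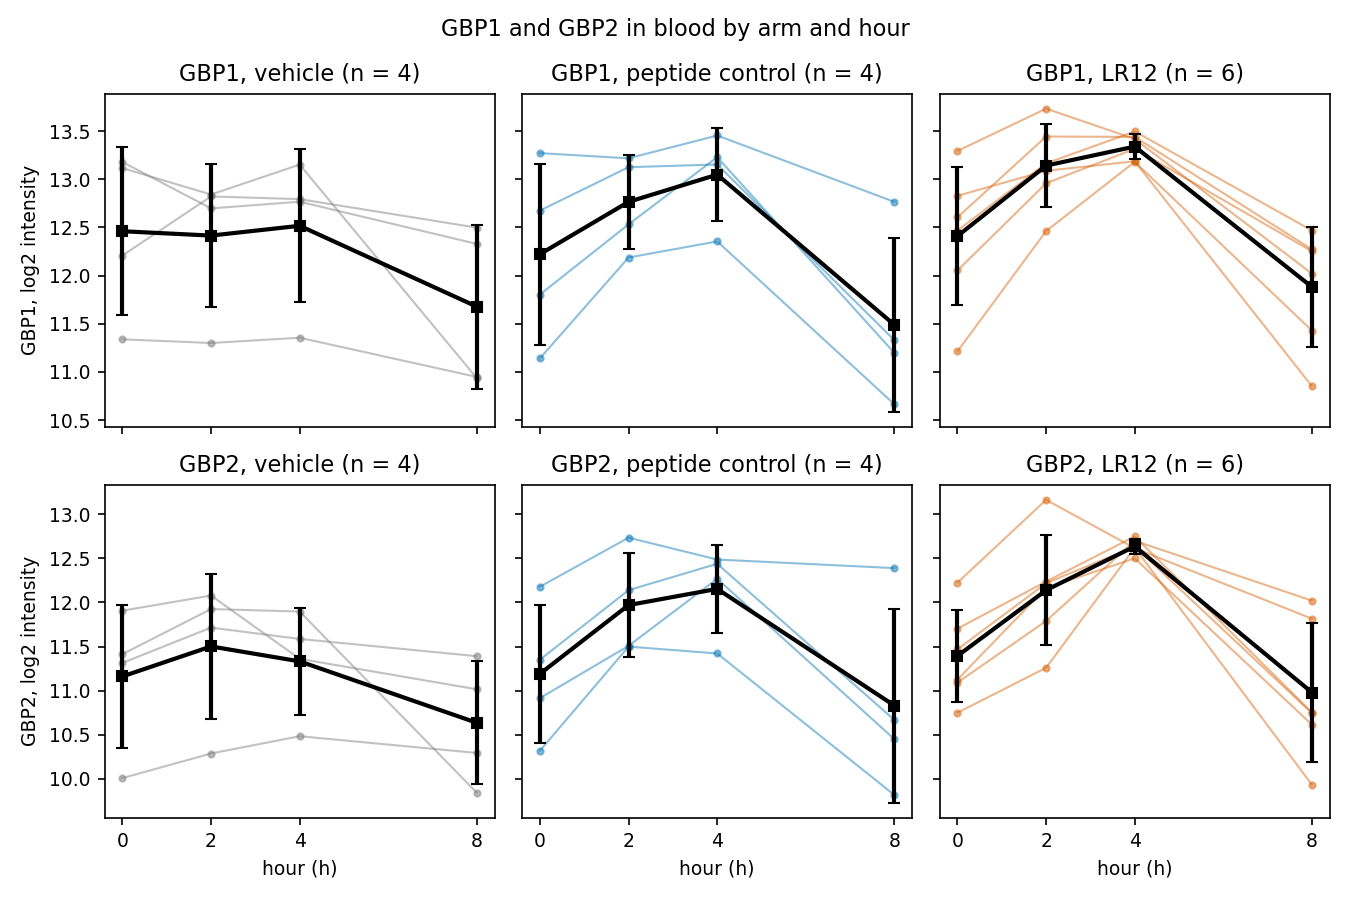
Log2 intensity of GBP1 (top) and GBP2 (bottom) against the hour in the 3 arms, thin lines joining the arrays of an animal and black squares giving the group mean with its SD. On the chosen probe sets shown, the 6 LR12 animals converge at 4 h, between 13.18 and 13.50 for GBP1 and between 12.50 and 12.75 for GBP2. They spread again at 8 h.

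Of the 18 tests of a change from 0 h, 4 were called, all in the LR12 arm, and 9 had an unadjusted p below 0.05. That arm has 6 animals and the others 4, so its SE was smaller, 0.29 against 0.36 for GBP1. A change of equal size is therefore called more readily there. GBP1 changed by 0.54 and 0.83 at 2 and 4 h with the peptide control, beside 0.73 and 0.93 with LR12. For GBP2 these changes were 0.78 and 0.96, beside 0.74 and 1.24. The 2 tested members stand against the shares of all genes called in the same direction. Higher genes made up 12.1% of those tested at 2 h and 12.8% at 4 h with LR12. The shares at these hours were 4.41% and 4.86% with the peptide control, and 0.069% and 0.213% with vehicle. Lower genes made up 25.9% and 30% at 2 and 4 h with LR12, and 3.3% and 10.6% with the peptide control. Lower genes at 8 h against 0 h made up 25.6%, 1.93% and 0.113% in the LR12, peptide control and vehicle arms. Between 4 and 8 h, lower genes made up 4.24% in the LR12 arm, where higher genes made up 6.14%, 0.288% in the peptide control arm and 0% in the vehicle arm, where limma called 0 genes and 816 had an unadjusted p below 0.05. Higher genes between 2 and 4 h made up 7.99%, 4.21% and 0.0188% in the LR12, peptide control and vehicle arms. The median change of all genes was itself below 0, at -0.18 and -0.29 for LR12 at 2 and 4 h and at -0.26 for the peptide control at 4 h, and centring each array on its median raised it to -0.12, -0.02 and 0.01. With that centring the share of calls that were higher moved from 30.0% to 47.2% in the LR12 arm at 4 h, from 31.5% to 74.8% in the peptide control arm at 4 h, from 44.7% to 88.8% in the vehicle arm at 4 h, from 91.7% to 75.0% in the vehicle arm at 2 h, and, from 4 to 8 h in the peptide control arm, from 68.9% to 31.4%. At 8 h against 0 h it moved from 29.9% to 54.7%, from 55.6% to 85.6% and from 21.7% to 50.0% in the LR12, peptide control and vehicle arms, and from 2 to 4 h from 43.6% to 72%, from 33.7% to 72.7% and from 9.68% to 62.5%.

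Relative to the median of all genes, GBP1 and GBP2 in the LR12 arm stood 0.91 and 0.92 higher at 2 h and 1.22 and 1.53 higher at 4 h. On arrays centred on their median, GBP1 and GBP2 were also called in the peptide control arm at 4 h, with differences of 1.09 (limma adjusted p = 0.0399) and 1.23 (adjusted p = 0.0306). After quantile normalization the LR12 differences at 2 h were 0.47 and 0.52 and were not called (adjusted p = 0.196 and 0.168), while those at 4 h were 0.93 and 1.14 (adjusted p = 0.00672 and 0.00144). The 2 h calls were also lost without the animal block (adjusted p = 0.136 for GBP1 and 0.130 for GBP2).

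Single animals bore on several calls. The 2 h call of GBP1 in the LR12 arm was lost when any of Y31306, Y31307, Y31309, Y31310, Y31311, Y31312 or Y31313 was left out, with adjusted p up to 0.128, and that of GBP2 when any of Y31306, Y31310, Y31311, Y31312, Y31313 or Y31314 was, with adjusted p up to 0.114. The 4 h call of GBP1 was lost without Y31309, when the difference was 0.72 (adjusted p = 0.0693). Y31309 had the lowest GBP1 level at 0 h in its arm and the largest change at 4 h, 1.97. The fall of GBP1 from 4 to 8 h in the peptide control arm was not called without Y31306, Y31307 or Y31308 (adjusted p up to 0.231) or without the animal block (adjusted p = 0.191). That of GBP2 was called without Y31302 (adjusted p = 0.0445), Y31303, Y31305 or Y31310, the lowest adjusted p being 0.00644 without Y31305. At 4 h against 0 h the peptide control arm gave called differences without Y31305, of 1.04 for GBP1 (adjusted p = 0.0460) and 1.18 for GBP2 (adjusted p = 0.0193), and without Y31302 for GBP2 (adjusted p = 0.0466).

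The cell makeup of the blood moved over the same hours, and in bulk RNA fewer cells of a type and less RNA per cell cannot be told apart. The summed intensity of 11 of 12 neutrophil markers went from between 13610 and 31190 at 0 h in the LR12 arm to between 40020 and 48270 at 4 h. That of 10 of 10 monocyte markers went from between 16160 and 25280 to between 17540 and 28770. That of 9 of 10 T cell markers went from between 6556 and 12330 to between 913 and 3166, and that of 7 of 8 B cell markers from between 2050 and 6297 to between 849 and 4874. At 8 h, when GBP1 and GBP2 had fallen back, the neutrophil sum was still between 40180 and 51360, the monocyte sum between 23700 and 32560 and the T cell sum between 1245 and 3081. The sum of 10 of 10 markers of natural killer and cytotoxic cells, which make interferon gamma, was between 3741 and 7474 at 0 h, between 2322 and 5415 at 4 h and between 1332 and 2384 at 8 h in the LR12 arm. In the vehicle arm the neutrophil sum was between 14040 and 33800 at 0 h and between 23620 and 45090 at 4 h, and the T cell sum between 4286 and 12220 and between 2475 and 5413. In the peptide control arm the neutrophil sum was between 25860 and 33850 at 0 h and between 30850 and 43580 at 4 h, and the T cell sum between 4790 and 8805 and between 1615 and 3834. The sum of 6 of 8 dendritic cell markers went from between 886.8 and 2568 at 0 h to between 177.4 and 515.5 at 4 h in the LR12 arm, without overlap. With the peptide control it went from between 515.2 and 846.1 to between 221.6 and 378.7, also without overlap, and with vehicle from between 396.2 and 2092 to between 302.8 and 1283. For LR12 the sum of 7 of 7 platelet markers went from between 7293 and 14040 to between 4700 and 8232, and that of 6 of 7 erythroid markers from between 3620 and 14680 to between 4022 and 9929. The part of cell makeup in the changes of GBP1 and GBP2 was not tested.

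Fits within arrays of high or low control signal kept only groups with more than 1 such array. On arrays with low control signal alone, GBP1 and GBP2 in the LR12 arm were 0.87 and 0.85 higher at 2 h (limma adjusted p = 0.0183 and 0.0235). At 4 h they were 1.07 and 1.43 higher (adjusted p = 0.006 and 0.00055). Their difference from 4 to 8 h was -1.70 for GBP1 and -1.27 for GBP2 (adjusted p = 0.00462 and 0.0325). On arrays with high control signal it was -1.37 and -2.22 (adjusted p = 0.199 and 0.0235), and the LR12 changes from 0 h were not fitted there, with 1 such array at 0 h. The peptide control step from 4 to 8 h on high-control arrays was -1.92 for GBP1 and -1.78 for GBP2 (adjusted p = 0.0323 and 0.0252).

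GBP1 has 4 probe sets, all of which passed the filter. In the LR12 arm all 4 were higher at 2 h and at 4 h than at 0 h and lower at 8 h than at 4 h, with different sizes. The chosen set 202269_x_at carries an x in its name, which in the array maker's naming marks probes that may also bind other sequences, and the s of 231577_s_at marks probes shared by several transcripts. Reads of closely related GBP genes by such sets cannot be told apart here. In a fit over all 30680 probe sets of 1 symbol that passed the filter, 231577_s_at rose by 1.45 ± 0.43 (log2, SE, n = 6) at 2 h and by 2.52 ± 0.43 at 4 h in the LR12 arm, 5.73-fold at 4 h (limma adjusted p = 0.00619 and 4.67e-06). The lowest, median and highest LR12 animals of that set were 8.13, 9.75 and 10.49 at 0 h and 11.25, 11.94 and 12.85 at 4 h. The set 202270_at rose by 1.10 ± 0.30 at 2 h and by 1.47 ± 0.30 at 4 h (adjusted p = 0.00338 and 9.00e-05). The set 231578_at, the dimmest and above the array median on 42 arrays, rose by 1.10 ± 0.34 at 2 h and by 0.95 ± 0.34 at 4 h (adjusted p = 0.00900 and 0.0214). In the same fit the chosen sets of GBP1 and GBP2 had adjusted p of 0.0567 and 0.0532 at 2 h, and of 0.0117 and 0.000838 at 4 h.

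The GBP1 sets disagreed at 4 h in the peptide control arm. The set 202270_at rose by 1.08 ± 0.37 (log2, SE, n = 4, limma adjusted p = 0.0472). The set 231577_s_at differed by 1.27 ± 0.52 (adjusted p = 0.102) and 231578_at by -0.32 ± 0.41 (adjusted p = 0.671). Among vehicle animals 231577_s_at was higher at 4 h in 4 of 4 animals, by 1.11 ± 0.52 (adjusted p = 0.345), while the other 3 sets differed by 0.21 or less. All 4 sets fell from 4 to 8 h in the LR12 arm, by 1.46, 1.92, 1.28 and 1.32 for 202269_x_at, 231577_s_at, 202270_at and 231578_at (adjusted p = 0.000827, 0.00194, 0.00341 and 0.00723). Against 0 h the 4 sets did not share a direction at 8 h in that arm, with differences of -0.53, 0.60, 0.19 and -0.37 in the same order, none called (adjusted p = 0.185, 0.3, 0.677 and 0.440). The second GBP2 set, 242907_at, was above the array median on 0 arrays and gives no usable reading.

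**Figure D3:**
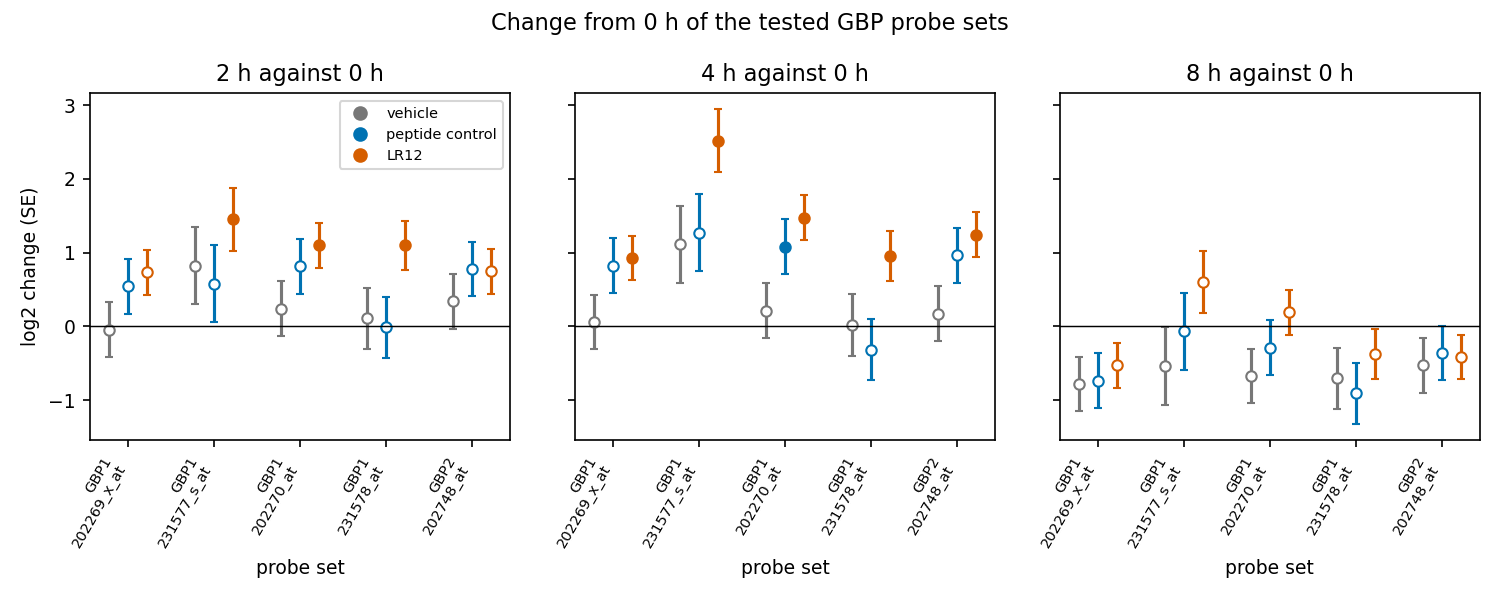
Log2 change from 0 h, with SE, of the 4 GBP1 probe sets and the chosen GBP2 set at 2, 4 and 8 h in the 3 arms, filled where called by limma in the fit over all probe sets. At 4 h the LR12 points of all 5 sets are filled, from 0.93 to 2.52, and at 8 h no point is.

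The arms were also compared at each hour. Since the labels leave unstated whether vehicle animals were given endotoxin, peptide and challenge cannot be told apart in the comparisons with vehicle. At 0 h GBP1 differed between LR12 and vehicle by -0.05 ± 0.37 and GBP2 by 0.23 ± 0.38. At 4 h all 6 LR12 arrays of GBP2 lay above all 4 vehicle arrays, whose highest was 11.90, and just above all 4 peptide control arrays, whose highest was 12.49 beside the LR12 lowest of 12.50. For GBP1 the LR12 arrays, from 13.18, lay just above the vehicle arrays, up to 13.15, and overlapped the peptide control arrays, up to 13.45. Among all genes tested, 2.51% had every LR12 array above every vehicle array at 4 h, and 1.8% had every LR12 array above every peptide control array.

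GBP2 was 1.30 ± 0.38 (log2, SE) higher in 6 LR12 animals than in 4 vehicle animals at 4 h, 2.47-fold, with a limma adjusted p of 0.0141. GBP1 was 0.82 ± 0.37 higher there (adjusted p = 0.135). The call of GBP2 was lost without Y31302, the vehicle animal with the lowest level (difference 1.02, adjusted p = 0.0911), and GBP1 was called without Y31303 (difference 1.03, adjusted p = 0.0490). Without Y31302 the GBP1 difference was 0.44 (adjusted p = 0.539). On low-control arrays alone the GBP2 difference was 1.54 (adjusted p = 0.0237), and on high-control arrays it was 1.02 (adjusted p = 0.431). In the fit over all probe sets, 202270_at of GBP1 was 1.14 ± 0.38 higher in LR12 than in vehicle at 4 h (adjusted p = 0.0404). The sets 231577_s_at and 231578_at were 1.24 ± 0.53 and 0.72 ± 0.42 higher and were not called (adjusted p = 0.124 and 0.288). Against the peptide control at 4 h the LR12 difference was 0.29 ± 0.37 for GBP1 (95% interval -0.46 to 1.04, adjusted p = 0.777) and 0.48 ± 0.38 for GBP2 (95% interval -0.27 to 1.24, adjusted p = 0.576). The GBP1 sets 231577_s_at, 202270_at and 231578_at differed there by 1.20 ± 0.53, 0.39 ± 0.38 and 0.82 ± 0.42. None was called (limma adjusted p = 0.2445, 0.6805 and 0.3288). The peptide control differed from vehicle at 4 h by 0.53 ± 0.41 for GBP1 (adjusted p = 0.619) and 0.82 ± 0.41 for GBP2 (adjusted p = 0.409). These comparisons share animals, so they are not independent of each other.

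Of the 24 tests of a member between arms at an hour, 1 was called by limma and 2 had an unadjusted p below 0.05. Among all genes, LR12 against vehicle gave 0.0313%, 17.9%, 14% and 4.66% called at 0, 2, 4 and 8 h. LR12 against the peptide control gave 0%, 4.56%, 1.87% and 0.0627%. The peptide control against vehicle gave 0%, 0%, 0.0251% and 0.0251%. Where limma called 0 genes, 788 had an unadjusted p below 0.05 for LR12 against the peptide control at 0 h, and 423 and 1418 for the peptide control against vehicle at 0 and 2 h.

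Whether the change from 0 h differed between arms was tested as the difference of the changes. The change of GBP2 to 4 h was 1.07 ± 0.47 larger in the LR12 arm than in the vehicle arm (95% interval 0.13 to 2.01, limma adjusted p = 0.147), and with the animal as a fixed term its adjusted p was 0.0472. That of GBP1 was 0.87 ± 0.47 larger (95% interval -0.06 to 1.81, adjusted p = 0.250). Exact two-sided permutation of the animals' changes gave p = 0.0238 for GBP2 and 0.0524 for GBP1 over 210 splits, 0.129 and 0.189 after adjustment over the 18 tests. Between LR12 and the peptide control the change to 4 h differed by 0.10 ± 0.47 for GBP1 (95% interval -0.83 to 1.04) and by 0.28 ± 0.47 for GBP2 (95% interval -0.66 to 1.22), with limma adjusted p of 0.957 and 0.866. Between the peptide control and vehicle it differed by 0.77 ± 0.51 and 0.79 ± 0.51 (adjusted p = 0.732 and 0.724). At 2 h the exact permutation p between LR12 and vehicle was 0.0143 for GBP2 and 0.0238 for GBP1, each 0.129 after adjustment. That of GBP2 between the peptide control and vehicle was 0.0286, the smallest that 70 splits allow, and 0.129 after adjustment.

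No difference of changes was called for a member by limma, and 1 of 18 had an unadjusted p below 0.05. The shares of all genes called were 10.7%, 7.09% and 1.77% for LR12 minus vehicle at 2, 4 and 8 h, 1.18%, 0.00627% and 0% for LR12 minus the peptide control, and 0% at all 3 hours for the peptide control minus vehicle. Where 0 genes were called, 1602 had an unadjusted p below 0.05 for LR12 minus the peptide control at 8 h, and 947, 1221 and 824 for the peptide control minus vehicle at 2, 4 and 8 h.

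Ordered by mean, the 12 groups of GBP1 ran from 11.49 ± 0.90 (SD, n = 4) in the peptide control arm at 8 h to 13.34 ± 0.13 (SD, n = 6) in the LR12 arm at 4 h. Those of GBP2 ran from 10.63 ± 0.70 (SD, n = 4) in the vehicle arm at 8 h to 12.64 ± 0.08 (SD, n = 6) in the LR12 arm at 4 h. The 3 groups at 8 h were the 3 lowest for both genes. None of the 11 gaps between neighbouring groups exceeded the larger SD of the pair for either gene, and the widest were 0.34 for GBP1 and 0.48 for GBP2.

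The animals differed in level, and mostly in the same way for both genes. After removal of the group means, the animals' means had an SD of 0.52 for both GBP1 and GBP2, and the arrays within an animal had an SD of 0.43. Y31302 of the vehicle arm was lowest for both genes, with a mean deviation from its groups of -1.03 for GBP1 and -0.89 for GBP2. Y31305 of the peptide control arm was highest, at 0.80 and 0.91. The hour of the highest level was 4 h in 4 of 4 peptide control animals and 4 of 6 LR12 animals for GBP1. It was 4 h in 5 of 6 LR12 animals and 2 of 4 peptide control animals for GBP2. In no animal was either gene highest at 8 h.

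GBP1 and GBP2 moved together over the arrays. Across the 56 arrays, which share animals and array scaling, their log2 values correlated with a Pearson r of 0.91 and a Spearman rho of 0.90, and with an r of 0.86 after removal of the group means. GBP1 sets correlated with the chosen one at 0.89 for 202270_at, 0.84 for 231577_s_at and 0.74 for 231578_at.

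**Figure D4:**
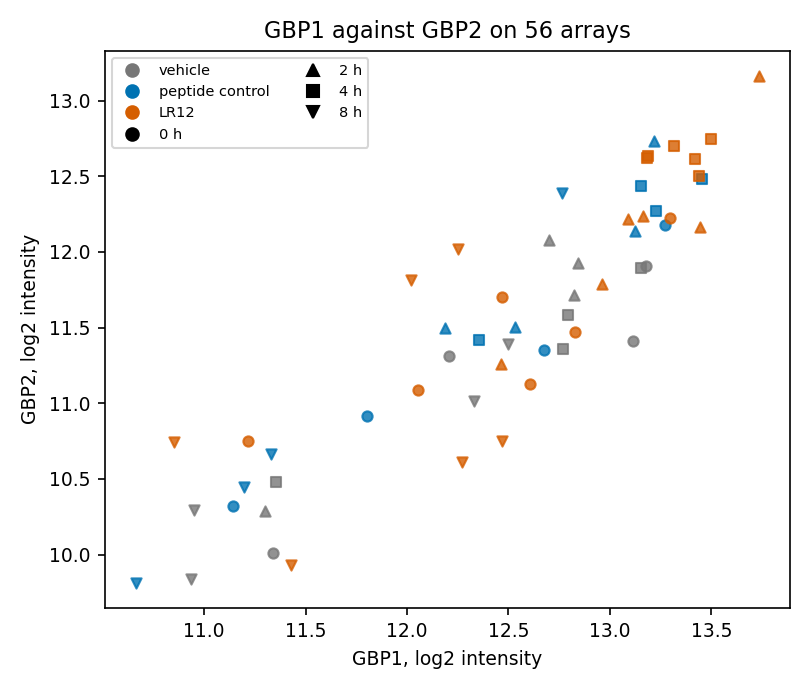
Log2 intensity of the chosen GBP2 set against that of the chosen GBP1 set on the 56 arrays, coloured by arm and with a marker for the hour. The LR12 arrays at 4 h form a tight group, with GBP1 from 13.18 and GBP2 from 12.50 upward, and the arrays at 8 h hold the lowest values.

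By likeness of pattern over the 56 arrays, the genes nearest to GBP1 other than GBP2 were TRIM21 (r = 0.86), PARP14 (0.80), DTX3L (0.80), IFIT2 (0.80) and IFIH1 (0.79). TRIM21 is a cytosolic antibody receptor and ubiquitin ligase, PARP14 an ADP-ribosyltransferase, DTX3L a ubiquitin ligase, IFIT2 an interferon-induced RNA-binding protein and IFIH1 a sensor of double-stranded RNA. The nearest to GBP2 other than GBP1 were TRIM21 (0.87), IFIH1 (0.83), TAP1 (0.82), PSMB8 (0.79) and CXCL10 (0.79). TAP1 moves peptides for antigen presentation, PSMB8 is a subunit of the immunoproteasome and CXCL10 is a chemokine for T cells. At 4 h in the LR12 arm TRIM21 rose by 1.58, PARP14 by 1.03, DTX3L by 0.77, IFIH1 by 1.41, TAP1 by 0.65, PSMB8 by 0.41 and CXCL10 by 4.10, with limma adjusted p between 7.93e-09 and 0.0150. IFIT2 differed by 0.65 (adjusted p = 0.395). The changes from 4 to 8 h in that arm were -1.58 for TRIM21, -1.12 for TAP1, -0.94 for PARP14, -0.70 for DTX3L, -1.39 for IFIH1, -0.80 for PSMB8 and -5.44 for CXCL10, each called, and -1.63 for IFIT2, not called (limma adjusted p = 0.0585). The likeness uses the same arrays as the comparisons above and is a description.

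The interferon gamma axis together with its feedback was read by 16 listed genes, of which 13 were tested. The list holds inhibitors such as SOCS1, so its counts and medians mix the inducing axis with feedback. The probe set of IFNG, interferon gamma itself, was above the array median on 3 arrays and was not tested. At 2 h in the LR12 arm 8 of the 13 rose and 1 fell, and 10 rose and 2 fell at 4 h. The median change was 0.58 at 2 h and 0.66 at 4 h, beside -0.18 and -0.29 over all genes tested. Of all genes tested, 12.1% were higher and 25.9% lower at 2 h, and 12.8% and 30% at 4 h. IRF1, the transcription factor between interferon gamma and many GBP promoters, rose by 1.43 ± 0.17 at 2 h (log2, SE, limma adjusted p = 2.81e-09), stood 0.66 ± 0.17 higher at 4 h (adjusted p = 0.00147), and fell by 0.71 ± 0.17 from 4 to 8 h (adjusted p = 0.00380). The kinase gene JAK2 rose by 1.07 ± 0.29 at 2 h and by 2.12 ± 0.29 at 4 h (adjusted p = 0.00218 and 3.82e-08). SOCS1, the inhibitor of JAK signalling, rose by 1.81 ± 0.32 at 2 h and by 2.28 ± 0.32 at 4 h and fell by 3.07 ± 0.32 from 4 to 8 h (adjusted p = 9.07e-06, 8.77e-08 and 1.40e-09). The receptor chain IFNGR2 rose by 1.76 ± 0.23 and the phosphatase gene PTPN2 by 1.36 ± 0.20 at 2 h (adjusted p = 1.92e-08 and 2.78e-07). Under the peptide control 3 rose and 2 fell at 2 h, where 4.41% of all genes were higher and 3.3% lower. At 4 h 7 rose, where 4.86% of all genes were higher, with a median of 0.55 beside -0.26 over all genes. In the vehicle arm none of the 13 was called at 2 or 4 h. Of all genes 0.069% and 0.213% were higher there, and 0.00627% and 0.263% lower, so no call is near that background.

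Other genes that interferon gamma induces were read by 30 listed genes, of which 26 were tested. With LR12 10 rose and 2 fell at 2 h, and 16 rose and 2 fell at 4 h, when the median was 0.86. Of all genes tested, 12.1% were higher and 25.9% lower at 2 h, and 12.8% and 30% at 4 h. From 4 to 8 h none of the 26 rose and 8 fell, with a median of -0.61 beside 0.04 over all genes. Over that step 6.14% of all genes were higher and 4.24% lower. FCGR1A, the high-affinity receptor for IgG, rose by 5.69 ± 0.77 at 4 h and CXCL10 by 4.10 ± 0.51 (limma adjusted p = 5.75e-08 and 7.93e-09). ANKRD22 rose by 3.88 ± 0.57 and the adhesion molecule ICAM1 by 3.84 ± 0.50 at 4 h (adjusted p = 2.84e-07 and 2.26e-08). Thereafter, to 8 h, CXCL10 fell by 5.44 ± 0.51 and ICAM1 by 3.18 ± 0.50 (adjusted p = 1.24e-10 and 1.62e-05). Under the peptide control 7 rose and 2 fell at 4 h, where 4.86% of all genes were higher and 10.6% lower. None of the 26 was called in the vehicle arm at 2 or 4 h. Of all genes 0.069% and 0.213% were higher there, and 0.00627% and 0.263% lower, so no call is near that background. The changes of GBP1 and GBP2 at 4 h, 0.93 and 1.24, stand beside a list median of 0.86.

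Genes of the interferon alpha and beta response were read by 30 listed genes, 29 of them tested. With LR12 3 rose and 1 fell at 2 h and 11 rose at 4 h, where 12.1% and 12.8% of all genes were higher. The 3 of 29 at 2 h are near that background, and the list median was -0.0013 at 2 h and 0.76 at 4 h, beside -0.18 and -0.29 over all genes. Under the peptide control 3 rose at 2 h and 5 at 4 h, where 4.41% and 4.86% of all genes were higher. The list median there was 0.72 at 4 h beside -0.26 over all genes. With LR12 on arrays centred on their median 17 rose at 4 h, where 18.4% of all genes were higher. After quantile normalization 16 did, beside 16.6% of all genes. PLSCR1 rose by 2.87 ± 0.45 at 2 h and by 2.74 ± 0.45 at 4 h (limma adjusted p = 9.93e-07 and 1.99e-06). IFIT5 rose by 2.08 ± 0.44 and TRIM22 by 1.87 ± 0.26 at 4 h (adjusted p = 9.61e-05 and 6.55e-08). To 8 h from 4 h, 7 of the 29 fell and none rose, beside 4.24% lower and 6.14% higher over all genes. Among the 7 was IFIH1, which fell by 1.39 ± 0.25 (adjusted p = 9.93e-05). Among vehicle animals 1 of the 29 was called at 4 h, as higher, where 0.213% of all genes were higher.

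All 12 listed genes of cytosolic endotoxin sensing and pyroptosis were tested. With LR12 7 rose at 2 h, and 7 rose and 1 fell at 4 h, with medians of 0.79 and 0.91 beside -0.18 and -0.29 over all genes. Of all genes tested, 12.1% were higher and 25.9% lower at 2 h, and 12.8% and 30% at 4 h. CASP5, a caspase that binds endotoxin, rose by 2.48 ± 0.47 at 4 h (limma adjusted p = 2.34e-05). CASP4, chosen after its values were seen for its place after the GBP coat, rose by 0.88 ± 0.20 at 2 h and 0.94 ± 0.20 at 4 h (adjusted p = 0.000232 and 8.34e-05). GSDMD, the gene of gasdermin D and chosen in the same way, rose by 0.95 ± 0.15 and 0.88 ± 0.15 (adjusted p = 6.71e-07 and 2.35e-06). TIFA, an adaptor of cytosolic bacterial sensing, rose by 4.62 ± 0.56 at 4 h (adjusted p = 3.96e-09), and IL1B and IL18, the cytokines released by these pathways, by 3.72 ± 0.39 and 4.64 ± 0.50 at 2 h (adjusted p = 1.34e-10 and 2.63e-10). Not all moved upward throughout. From 2 to 4 h in the LR12 arm NINJ1 changed by -1.085 ± 0.225 (limma adjusted p = 0.000316). Over that step IL18 changed by -3.06 and IL1B by -1.44 (adjusted p = 8.53e-06 and 0.006). CASP5 went the other way, by 1.78 (adjusted p = 0.00507). Between 4 and 8 h 3 of the 12 fell and 2 rose, beside 4.24% lower and 6.14% higher over all genes. PYCARD, the inflammasome adaptor, rose by 1.17 ± 0.20 (adjusted p = 4.64e-05). Under the peptide control 5 rose at 2 h, where 4.41% of all genes were higher. At 4 h 3 rose and 1 fell, where 4.86% of all genes were higher and 10.6% lower. The 1 that fell is near that background and was NINJ1, by 0.99 ± 0.28 (limma adjusted p = 0.0122). In the vehicle arm none of the 12 was called at 2 or 4 h. Of all genes 0.069% and 0.213% were higher there, and 0.00627% and 0.263% lower, so no call is near that background.

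**Figure D5:**
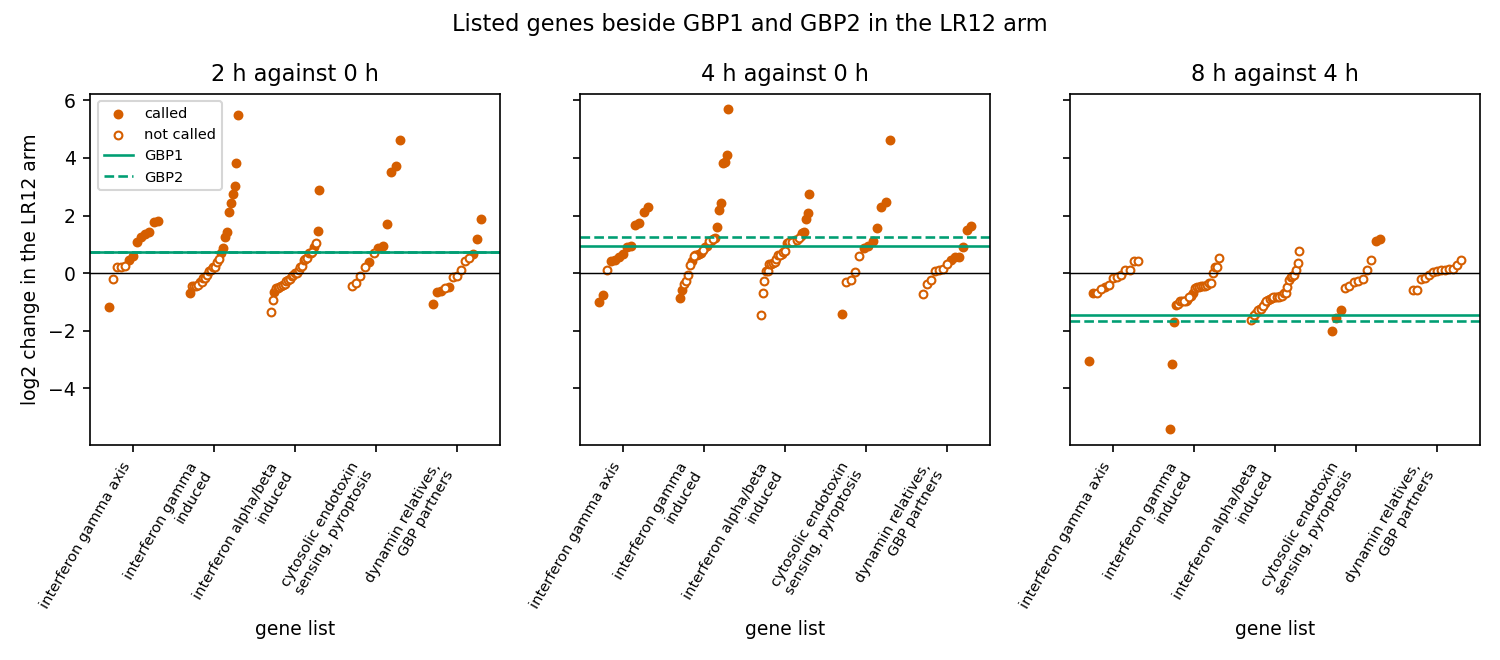
Log2 change of each tested gene of the 5 lists in the LR12 arm at 2 h and 4 h against 0 h and at 8 h against 4 h, filled where called by limma, with lines at the changes of GBP1 and GBP2. At 4 h the lines lie at 0.93 and 1.24, within the spread of every list, and from 4 to 8 h they lie at -1.46 and -1.66, below the median of every list.

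Relatives and partners of GBPs were read by 16 listed genes, 13 of them tested. With LR12 3 rose and 4 fell at 2 h, where 12.1% of all genes were higher and 25.9% lower, so the 4 of 13 that fell are near the background. At 4 h 6 rose and none fell, with a median of 0.31, beside 12.8% of all genes higher and 30% lower. On arrays centred on their median 3 rose and 1 fell at 2 h, and after quantile normalization 5 rose and 1 fell at 4 h. PIM1, a kinase that restrains GBP1 by phosphorylation, rose by 1.19 ± 0.36 at 2 h and by 1.49 ± 0.36 at 4 h (limma adjusted p = 0.00722 and 0.000704). FURIN, the protease that GBP2 and GBP5 restrain, rose by 0.56 ± 0.15 at 4 h (adjusted p = 0.00176). FNTB and FNTA are chains of the enzyme that adds a farnesyl lipid to GBP1. They fell by 1.09 ± 0.44 and 0.66 ± 0.22 at 2 h (adjusted p = 0.0438 and 0.0156). FNTA then rose by 0.80 ± 0.22 from 2 to 4 h (adjusted p = 0.008). PGGT1B, a chain of the related enzyme that lipidates GBP2 and GBP5, rose by 0.90 ± 0.33 at 4 h (adjusted p = 0.0219). GBP6, a further family member, was above the array median on 6 arrays only, and its differences in the LR12 arm were 1.87 ± 0.66 at 2 h and 1.64 ± 0.66 at 4 h (adjusted p = 0.0199 and 0.0383). GBP7 was not tested.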

How the data were processed

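Blood had been collected in PAXgene tubes and biotinylated cDNA prepared with a NuGEN kit from 50 ng of RNA, per the labels' protocols. The deposited values are linear intensity values. The submitters' processing notes name MAS5, with version and settings not given in the sources used here. The number of arrays limits the precision. Values were put on the log2 scale unchanged. Tests used limma 3.58.1 (R 4.3.3), with means for 12 groups, the animal as a random block (statmod 1.5.0, consensus correlation 0.222), trend and robust moderation, and Benjamini-Hochberg adjustment within each of 36 comparisons. The call threshold was an adjusted p of 0.05. A gene was tested if its probe set was above the array median on at least 4 arrays. Of 54675 probe sets, 41097 had 1 symbol, 1801 several and 11777 none. Tests were two-sided, and replicates are animals. Arrays of an animal deviated together (mean correlation 0.181, from 0.103 to 0.330 by animal, against -0.029 between animals), and the labels name the animal. The fit was tested on simulated data. The members and lists were chosen with earlier results of these data known. Named genes are the members, the 4 called genes of a list with the largest change in a comparison or some of them, and the 5 genes most correlated with a member. CASP4 and GSDMD, outside that rule for the values given, were chosen after their values were seen. The values of IRF1 at 4 h and of JAK2 at 2 h in the LR12 arm are also outside that rule. Alternatives covered the block, scaling, filter, offset, probe set summary, moderation, control signal, exact permutation and each animal left out.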

Additional observations from a re-analysis of the deposited data

Results flagged for a closer look

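GBP1 of the vehicle animal Y31302 at 2 h stood apart from the other 3 animals of its group. Its log2 intensity was 11.30, and the nearest other value was 12.70, a gap of 0.907 of the group's range. Among 24 groups of GBP1 and GBP2 examined, this was the 1 found, and chance alone gives about 1 in 20. Y31302 was the animal with the lowest GBP1 and GBP2 over all its arrays.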

How the results depend on the processing

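In the LR12 arm both genes kept their direction at 2 h, at 4 h and from 4 to 8 h under all alternatives that gave a value, 25 or 26 for each. Of 25 alternatives, 14 kept the 2 h call for each gene and 24 the 4 h call. At 2 h neither member was called (0) without a replicate block, after quantile normalization, without the filter and with plain moderation, and 1 was with the mean of all probe sets. That mean, which takes in the near-background set of GBP2 and the other sets of GBP1, left 1 member called in the LR12 arm at 4 h and 1 from 4 to 8 h, 0 for LR12 against vehicle at 4 h, and 0 in the peptide control arm from 4 to 8 h. In the peptide control arm, 2 members were called at 4 h with the replicate block as a fixed term or with centred arrays and 1 with the stricter filter. From 4 to 8 h 0 were called there without a replicate block, and 2 with it as a fixed term, with the stricter filter and on high-control arrays. On high-control arrays, a split chosen after seeing the data, 1 was called in the LR12 arm from 4 to 8 h and 0 for LR12 against vehicle at 4 h. With the fixed block 1 member (GBP2) had a called difference in change at 4 h between LR12 and vehicle. The block changed no other call of a member. Leaving out 1 animal at a time gave 0 to 2 members called in the LR12 arm at 2 h, 1 to 2 at 4 h, 0 to 2 for LR12 against vehicle at 4 h, and 0 to 2 in the peptide control arm at 4 h and from 4 to 8 h. Signs turned only for values that were not called. GBP1 in the vehicle arm at 2 h was 0.28 with the mean of probe sets, 0.083 with the control signal as covariate and 0.54 on low-control arrays, and ran from -0.26 to 0.10 with 1 animal left out. At 4 h it was -0.19 on high-control arrays and ran from -0.12 to 0.21. GBP2 in the vehicle arm was -0.13 at 2 h with the mean of probe sets, -0.031 at 4 h on high-control arrays and 0.18 at 8 h on low-control arrays. GBP2 was -0.19 in the peptide control arm at 2 h and -0.078 for LR12 against the peptide control at 4 h with the mean of probe sets, and 0.16 in the LR12 arm at 8 h on low-control arrays. The difference in change of GBP1 at 4 h between LR12 and the peptide control ran from -0.11 to 0.30 with 1 animal left out. The causes were not tested. GBP3, GBP4 and GBP5 lay too close to background for a comparison.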
